A study of Mus musculus with 2 samples.

Results

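The genes of the proteasome were compared between pools of whole-pancreas RNA from offspring of threonine-deficient and of control dams. They were taken by name, as every gene whose symbol is Psm, a letter from a to g and a number, leaving out the immunoproteasome subunits Psmb8, Psmb9 and Psmb10. This gave 44 genes out of 18193 with a probe set of 1 gene symbol, and 41 of them had signals above the floor described below. Psme2 has no probe set of its own here and is not among them.

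The study compared male C57BL/6J mice at 10 weeks of age. Their mothers were fed either a threonine-deficient diet, short of this essential amino acid, or a control diet from embryonic day 12.5 to 14.5. All offspring went to control diet at weaning at 3 weeks, so only the diet of the mothers differed. Each group was 1 pool of pancreatic RNA on 1 Affymetrix mouse expression array, with no replicate, so no difference below has a test, a p-value or a standard deviation between samples, and each is a difference between these 2 pools. How many animals each pool held is not given.

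The proteasome is the protease that degrades proteins tagged with ubiquitin. Its core is a barrel of stacked rings, in which alpha subunits form the gated entrance and beta subunits form the chamber where proteins are cut. The active sites of the cutting subunits are threonine residues, freed when a propeptide is removed. The regulatory particle sits on the end of the core, with a base of ATPases that unfold the substrate and a lid that removes its ubiquitin. Chaperones assemble both parts, and alternative activators can dock in place of the regulatory particle. Acinar cells of the pancreas make large amounts of secreted protein, and proteins that misfold in their endoplasmic reticulum are exported to the cytosol for degradation by the proteasome.

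The values are MAS5 signals, the linear brightness of a probe set after the authors scaled each array as a whole. The trimmed mean signal was 500.0 on both arrays, so a difference in the total amount of mRNA could not be seen. A floor of 264.9, the 60th percentile of signal on whichever array had the higher one, replaced any signal under it and stands in for a detection call. Each gene is given by its brightest probe set, and a log2 ratio is that of the threonine-deficient over the control pool. In a bulk sample, fewer cells of a type and less RNA per cell cannot be told apart. Acinar markers had a summed signal of 1171009 in the threonine-deficient pool and 1094055 in the control pool, with 7 of 7 that were read above the floor, so the tissue label was borne out. Summed marker signals of other cell types also differed, given here for the threonine-deficient and then the control pool. They were 23505 and 42856 for adipocytes, 142917 and 173905 for islets, and 5948 and 11474 for lymphocytes and plasma cells. For ducts they were 3447 and 1828, for macrophages 6242 and 5959 and for endothelium 1892 and 1197. Of these markers, Lep, Krt7, Cftr, Cd79a, Cd3e and Cd14 were below the floor on both arrays. Gene by gene, the markers above the floor were not all of 1 direction. In the threonine-deficient pool 6 adipocyte markers were lower and 1 higher, and 3 lymphocyte and plasma cell markers lower and 2 higher. Macrophage markers had 1 lower and 3 higher, and acinar markers 1 lower and 6 higher. All 6 islet markers were lower, and all 3 duct and 4 endothelial markers higher. The ratio of 3' to 5' signal, a sign of RNA quality, was 1.53 in the threonine-deficient and 1.46 in the control pool for Actb, and 0.828 and 0.973 for Gapdh. The part of either in the values below was not tested.

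The proteasome genes differed by less than 2-fold between the arrays, with a slight lean toward lower values in the threonine-deficient pool. Of the 41 genes, 27 had a lower and 14 a higher signal there, against 49.9% lower and 50.1% higher among all 10758 genes above the floor on at least 1 array. The median log2 ratio was -0.11, with quartiles of -0.18 and 0.05, where all those genes had a median of 0.00. All 41 lay above the floor on both arrays, and among the 8834 genes that did so the median was -0.02 and 52.0% were lower. Signals within 10 percent of each other were found for 20 of the 41 genes, or 48.8%, against 35.8% of those 8834 genes. A difference of at least 1.5-fold was found for 1 gene that was lower, Psme3, and for none that was higher. Among all genes 5.36% were that much lower and 7.20% that much higher, or 4.81% and 5.42% of the genes above the floor on both arrays. No proteasome gene differed by 2-fold in either direction, against 0.874% of all genes lower and 1.28% higher. None of these shares takes account of brightness, and the ratios of dimmer genes spread more widely.

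**Figure D1:**
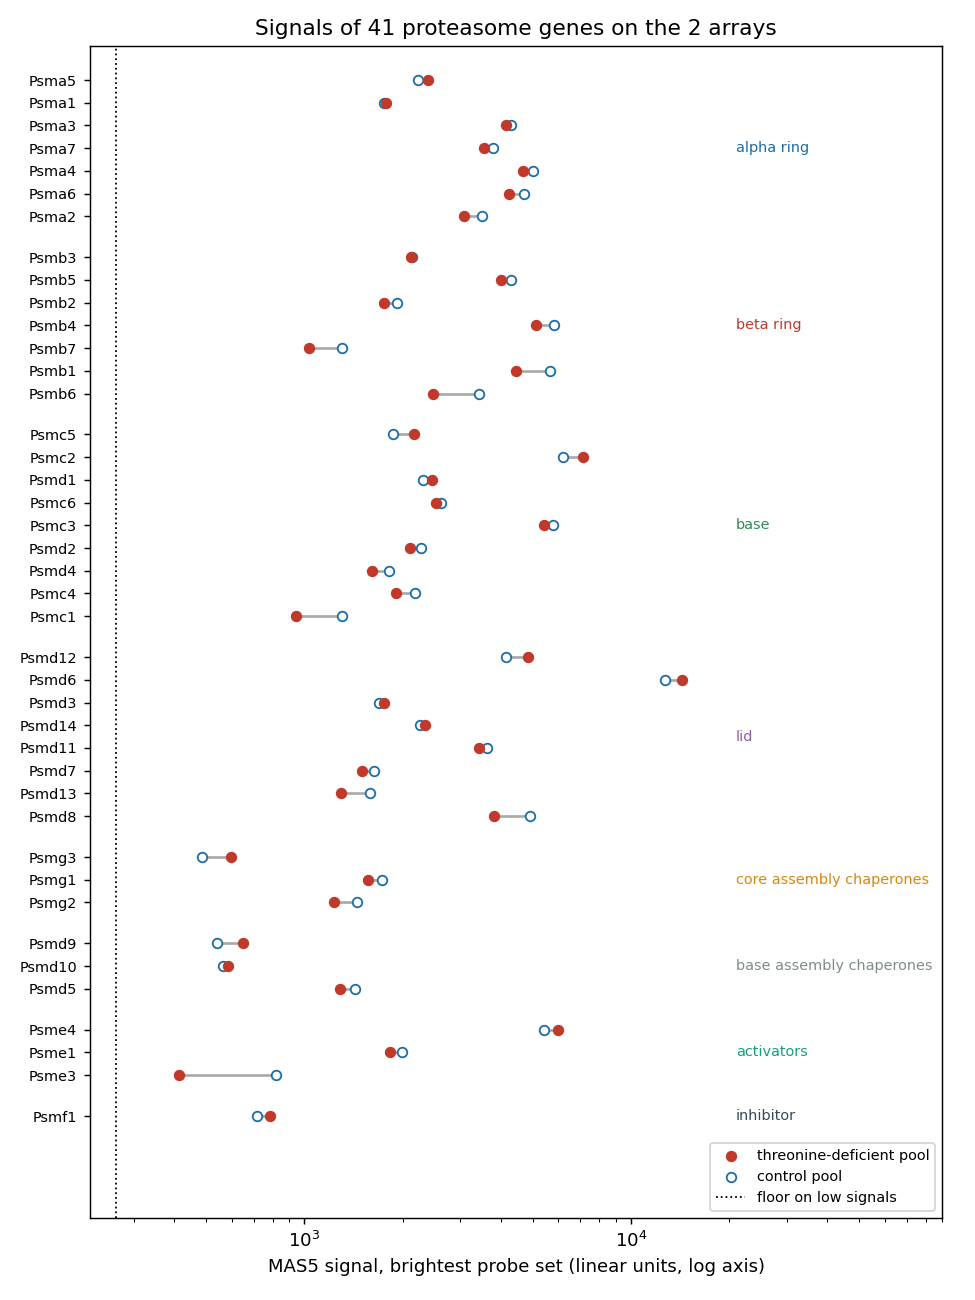
MAS5 signals of the 41 proteasome genes above the floor, grouped by role, on a log axis. Filled points are the threonine-deficient pool, open points the control pool, grey lines join the 2 signals of a gene and the dotted line is the floor of 264.9. The widest gap is that of Psme3, at 413 in the threonine-deficient pool and 820 in the control pool.

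Part of the lean was shared by other genes of the same brightness. The 200 genes nearest in signal to each proteasome gene had a median log2 ratio that ranged from -0.09 to 0.08, and the median of these local values was -0.05. Set against its own neighbours, each gene gave a count of 23 of 41 below the local median, or 56.1%, and the median distance from it was -0.04. The local spread is the scaled median absolute deviation of those 200 ratios. Of the 41 genes, 32 lay within 1 local spread of the local median and 40 within 2. The same shares over all genes were not counted, so these counts do not set the proteasome genes apart. The 18 hybridisation control probe sets above the floor, whose transcripts are added in fixed amounts, had a median log2 ratio of -0.07 with 15 lower, and ranged from -0.32 to 0.06. Several of them read the same added transcript, so they are not independent.

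Repeat readings give a part of the error of a single gene. In 18 of the 41 genes a second probe set lay above the floor on both arrays. The standard deviation per probe set, from the difference between the 2 brightest, was 0.15 on the log2 scale for these 18 genes, against 0.34 over 3246 genes and 0.22 over the 789 whose second probe set was at least as bright as the median of the 18. This covers differences between probe sets read on the same arrays, with 1 RNA pool per group. Error common to a whole array, from labelling, hybridisation or scaling, is not in it, and neither is the spread between animals. Counted by probe set, 46 of 67 readings of proteasome genes were lower in the threonine-deficient pool and 21 higher. The lower share was 68.7%, against 52.0% of all 13768 probe sets of 1 gene above the floor on both arrays. Probe sets of 1 gene share their RNA and are not independent.

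**Figure D2:**
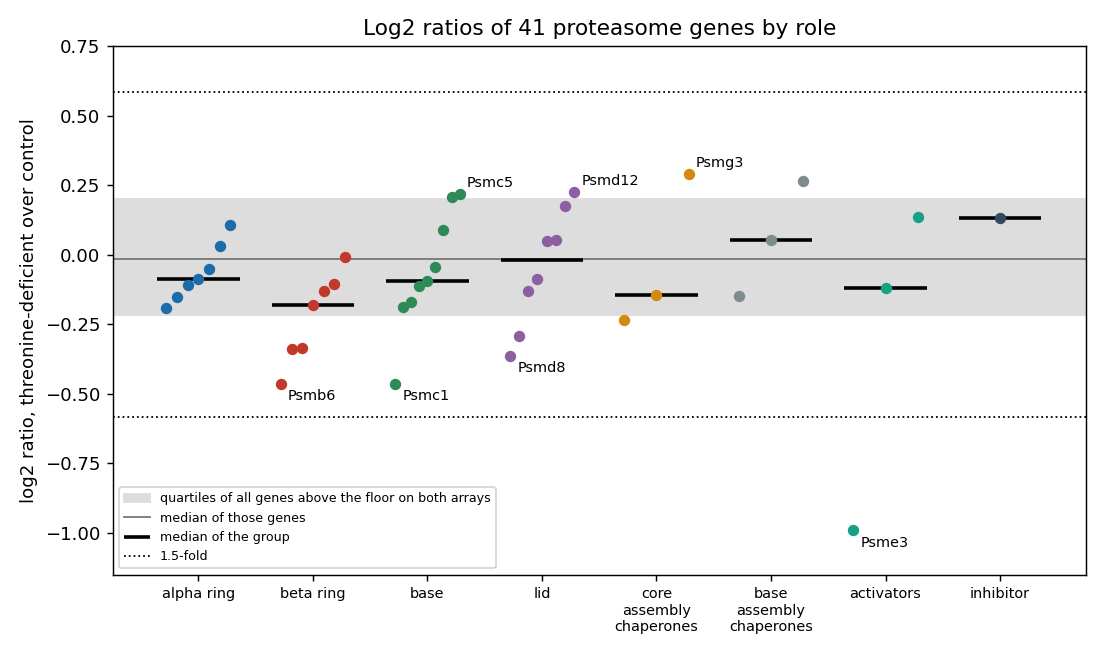
Log2 ratios (threonine-deficient over control) of the 41 genes by role. Each point is a gene, thick lines are group medians, the grey band runs between the quartiles of all genes above the floor on both arrays and dotted lines mark 1.5-fold. The 7 beta ring genes all lie below 0, the lid spreads around 0, and Psme3 lies alone at -0.99.

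The alpha subunits, which form the outer rings and the gate of the core, had the narrowest range of log2 ratios among the core rings, base and lid, from -0.19 to 0.11. Of 7 genes above the floor, 5 had a lower and 2 a higher signal in the threonine-deficient pool, with a median log2 ratio of -0.09. Psma2 had the lowest ratio, with signals of 3076 in the threonine-deficient pool and 3510 in the control pool, a log2 ratio of -0.19. Psma5 had the highest, at 2397 in the threonine-deficient pool and 2225 in the control pool (0.11). Both lie within 1 local spread of genes of like signal, 0.20 and 0.23. The remaining log2 ratios were -0.15 for Psma6, -0.11 for Psma4, -0.09 for Psma7, -0.05 for Psma3 and 0.03 for Psma1. A second probe set of Psma5 gave -0.17 and one of Psma6 gave 0.36, each opposite in sign to the brightest, while those of Psma7 (-0.11) and Psma3 (-0.12) had the same sign. Psma8, the alpha subunit of germ cells in the testis, was below the floor on both arrays, at 32.0 in the threonine-deficient and 107 in the control pool.

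The beta subunits were the group in which every measured gene was lower. All 7 genes above the floor had a lower signal in the threonine-deficient pool, and the median log2 ratio was -0.18. Against genes of like signal 6 of the 7 were below the local median, with a median distance of -0.12, and none was more than 2 local spreads away. The caspase-like subunit Psmb6 had signals of 2479 in the threonine-deficient pool and 3422 in the control pool. That log2 ratio, -0.47, was the lowest of the beta ring, 1.38-fold lower, against a local spread of 0.22. The trypsin-like subunit Psmb7 had 1036 in the threonine-deficient pool and 1307 in the control pool, which is -0.34 on the log2 scale, where the local spread was 0.32. The chymotrypsin-like subunit Psmb5 had 4003 in the threonine-deficient pool and 4310 in the control pool, which is -0.11 on the log2 scale, where the local spread was 0.17. These are the 3 subunits that cut peptide bonds, each was read by 1 probe set, and their ratios were -0.47, -0.34 and -0.11.

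The 4 beta subunits without an active site were also lower, with a median log2 ratio of -0.16 against -0.34 for the 3 cutting subunits. Psmb1 had 4462 in the threonine-deficient pool and 5651 in the control pool, a log2 ratio of -0.34, and -0.16 in its dimmer probe set. Psmb4 had -0.18 and -0.12 in its 2 probe sets, and Psmb2 had -0.13 in its only one. Psmb3 was nearly equal on the arrays, at 2122 in the threonine-deficient pool and 2134 in the control pool, and its probe sets gave -0.01 and -0.02. Whether the beta ring differs from the other roles was not tested, since there is 1 array per group. Psmb11, the beta subunit of thymic epithelium, was below the floor on both arrays, at 91.7 in the threonine-deficient and 19.8 in the control pool.

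The promoters of Psmb6 and Psmb5, the cutting subunits with the lowest and the highest of the 3 ratios, both hold the letters TGACNNNGC, a form of the antioxidant response element. Through such elements the transcription factor Nfe2l1 (NRF1) raises proteasome genes when proteasome activity is short. The 250 bases before the start are shown from RefSeq, build GRCm38.p6, each 5' to 3' on the strand of its gene, with matches to TGACNNNGC or CCAAT on either strand in capitals. Psme3, the 1 gene past 1.5-fold, is shown beside them and holds CCAAT in reverse.
Psmb6, chr11:70525107-70525356, plus strand: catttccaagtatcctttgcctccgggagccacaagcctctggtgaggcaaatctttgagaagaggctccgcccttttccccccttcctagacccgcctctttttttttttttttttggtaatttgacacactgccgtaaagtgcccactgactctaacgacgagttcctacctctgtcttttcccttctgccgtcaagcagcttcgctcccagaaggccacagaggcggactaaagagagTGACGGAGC
Psmb5, chr14:54617996-54618245, minus strand: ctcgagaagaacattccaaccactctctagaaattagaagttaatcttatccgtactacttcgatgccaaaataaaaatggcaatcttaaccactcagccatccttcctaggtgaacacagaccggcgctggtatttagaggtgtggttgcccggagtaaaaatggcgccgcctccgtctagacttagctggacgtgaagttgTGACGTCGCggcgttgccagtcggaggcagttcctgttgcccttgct
Psme3, chr11:101315963-101316212, plus strand: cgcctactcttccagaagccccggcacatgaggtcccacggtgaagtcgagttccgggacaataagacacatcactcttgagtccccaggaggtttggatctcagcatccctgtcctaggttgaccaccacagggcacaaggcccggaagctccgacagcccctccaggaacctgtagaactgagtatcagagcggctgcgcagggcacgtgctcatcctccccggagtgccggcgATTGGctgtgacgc

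Promoter sequences of 300 bases (250 before and 50 after the start) were matched for 36 of the 44 genes, in 38 promoters, and Psma8, Psmb1, Psmb2, Psmb7, Psmc3, Psmd3, Psmd7 and Psmg2 were not matched. TGACNNNGC, on either strand, was in 6 of the 38, or 15.8%, against 12.4% of all 32851 promoters in the table. The 6 genes were Psmb5, Psmb6, Psmc6, Psmd9, Psmd12 and Psme4. Their median log2 ratio was 0.05, with 3 lower, against -0.10 for the 28 other measured genes with a promoter, of which 18 were lower. CCAAT, on either strand, was in 13 of the 38, or 34.2%, against 37.4% of all promoters, and the 12 measured genes that hold it had a median of -0.07 against -0.10 for the 22 without. Neither set of letters was far from its share among all promoters, and a match is not evidence of binding.

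The base of the regulatory particle went both ways, with 6 of 9 genes lower, 3 higher and a median log2 ratio of -0.09. Its 6 ATPases form 1 ring, yet their ratios ran from -0.46 to 0.22. Psmc1 had the lowest, with signals of 943 in the threonine-deficient pool and 1301 in the control pool, 1.38-fold lower, against a local spread of 0.30. Its other probe set was below the floor on both arrays. Psmc5 had the highest, at 2165 in the threonine-deficient pool and 1863 in the control pool (0.22). Psmc2 was next, at 7156 in the threonine-deficient pool and 6191 in the control pool, a log2 ratio of 0.21 that its second probe set repeated at 0.23. Psmc2 was the only gene with all its readings above the floor higher in the threonine-deficient pool, among the 18 with more than 1. The other ATPases were Psmc4 at -0.19 and -0.25 in its 2 probe sets, Psmc3 at -0.09, and Psmc6 at -0.05 and -0.22. Of the other base subunits, the scaffold subunits Psmd1 and Psmd2 had 0.09 and -0.11, and the ubiquitin receptor Psmd4 had -0.17 and -0.13 in its 2 probe sets.

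The lid, which takes ubiquitin chains off substrates, was evenly split, with 4 genes lower, 4 higher and a median log2 ratio of -0.02. Against genes of like signal 3 of the 8 were below the local median. Psmd8, a structural subunit, had the lowest ratio, with 3814 in the threonine-deficient pool and 4909 in the control pool (-0.36, local spread 0.18). Psmd12, another, had the highest, with 4854 in the threonine-deficient pool and 4157 in the control pool (0.22, local spread 0.17). Both were read by 1 probe set, and they lay at distances of -1.70 and 1.64 local spreads from genes of like signal. Psmd14, the deubiquitinase of the lid, was nearly equal at 2339 in the threonine-deficient pool and 2261 in the control pool (0.05), and its partner Psmd7 had -0.13. The structural subunit Psmd3 had 0.05 and Psmd11 had -0.09. The 6 probe sets of Psmd11 above the floor ran from -0.43 to 0.36, a range wider than that of the lid genes themselves. Psmd13 had -0.29 and -0.20 in its 2 brighter probe sets and 0.29 in a dimmer one. Psmd6 had 0.17, at 14394 in the threonine-deficient pool and 12766 in the control pool, but -0.09 in its second probe set.

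**Figure D3:**
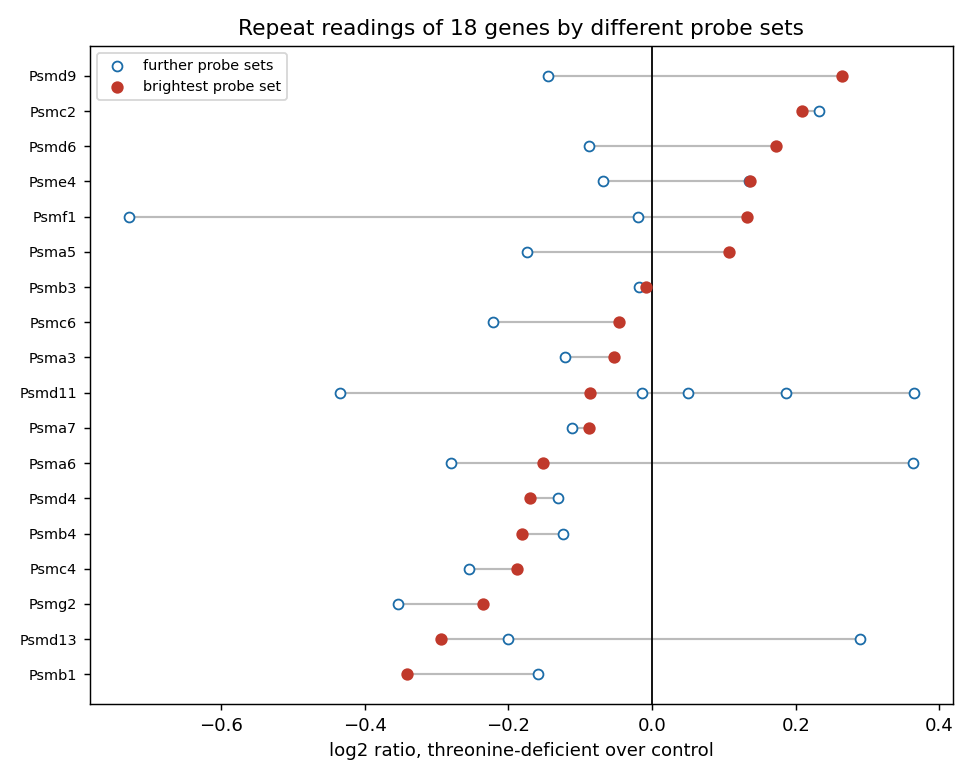
Log2 ratios (threonine-deficient over control) of every probe set above the floor on both arrays for the 18 genes with more than 1. Filled points are the brightest probe set of a gene and open points the further ones. All readings were lower in 9 genes and higher in 1, and in 8 genes they lay on both sides of 0.

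The 2 brightest probe sets of a gene had the same sign in 11 of the 18 genes, or 61.1%, against 52.1% over 3246 genes. The share was 59.4% over the 789 genes whose second probe set was at least as bright as the median of the 18. Agreement was thus near its share among other bright genes. All probe sets above the floor on both arrays were lower in the threonine-deficient pool for Psma3, Psma7, Psmb1, Psmb3, Psmb4, Psmc4, Psmc6, Psmd4 and Psmg2. The directions were mixed for Psma5, Psma6, Psmd6, Psmd9, Psmd11, Psmd13, Psme4 and Psmf1. The other 23 genes, among them Psmb6, Psmb7, Psmc1, Psmd8 and Psme3, had 1 probe set above the floor, so their values have no second reading.

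The assembly chaperones went both ways, with 3 of 6 measured genes lower. Psmg1 and Psmg2, which work as a pair in building the alpha ring, had log2 ratios of -0.14 and -0.24. Psmg2 had signals of 1230 in the threonine-deficient pool and 1448 in the control pool, and -0.35 in its second probe set. A further probe set of Psmg2 had 298 in the threonine-deficient pool and 179 in the control pool, under the floor, and so was higher there by at least 0.17 on the log2 scale. Psmg3, which pairs with Psmg4 in the same task, had the highest ratio of the 41 genes. It was at 595 in the threonine-deficient pool and 487 in the control pool (0.29), less than the local spread of 0.49. Psmg4 was below the floor on both arrays, at 178 in the threonine-deficient pool and 211 in the control pool. Of the chaperones of the base, Psmd9 had 649 in the threonine-deficient pool and 540 in the control pool (0.26), but -0.14 in its second probe set. Psmd5 had 1284 in the threonine-deficient pool and 1425 in the control pool (-0.15), and Psmd10 (gankyrin) had 0.05.

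Among the activators, Psme3, the nuclear activator PA28 gamma, had the lowest ratio of the 41 genes. Its signals were 413 in the threonine-deficient pool and 820 in the control pool, 1.99-fold lower. The log2 ratio was -0.99, at a distance of -3.07 local spreads from genes of like signal, whose spread was 0.35, and it was the 1 gene of the 41 beyond 2. Its further 2 probe sets were below the floor on both arrays, at 224 and 15.3 in the threonine-deficient pool and 208 and 29.9 in the control pool, so no second reading bears on it. Psme1, the PA28 subunit induced by interferon, had 1836 in the threonine-deficient pool and 1993 in the control pool (-0.12). A probe set shared by its partner Psme2 and Psme2b had 1185 in the threonine-deficient pool and 1230 in the control pool (-0.05), and cannot be assigned to 1 gene. Psme4, the nuclear activator PA200, had 0.14, -0.07 and 0.13 in its 3 probe sets above the floor, the brightest at 5966 in the threonine-deficient pool and 5427 in the control pool. The inhibitor Psmf1 (PI31) had 784 in the threonine-deficient pool and 715 in the control pool (0.13), while its further probe sets above the floor gave -0.02 and -0.73. The last of these, at 306 in the threonine-deficient pool and 507 in the control pool, was the only further reading of any of the 41 genes past 1.5-fold.

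Genes around the proteasome had mostly lower signals. Of 26 listed genes above the floor outside the naming pattern, 19 were lower and 7 higher in the threonine-deficient pool. That is 73.1% lower, against 49.9% among all genes, with a median log2 ratio of -0.17. Only 1 was past 1.5-fold, and it was lower, where 5.36% of all genes were that much lower and 7.20% that much higher. These values take no account of brightness, and the 26 genes were not set against genes of like signal. Among the 3 immunoproteasome subunits, which replace the cutting subunits in immune cells and after interferon, Psmb10 had 8164 in the threonine-deficient pool and 9916 in the control pool (-0.28). Psmb8 had 347 in the threonine-deficient pool and lay at the floor in the control pool, at 263, so it was at least 1.31-fold higher. Psmb9 was below the floor on both arrays, at 219 in the threonine-deficient pool and 43.3 in the control pool. The maturation factor Pomp had 1967 in the threonine-deficient pool and 2036 in the control pool (-0.05), the small lid subunit Sem1 had -0.15, and Akirin2, which carries proteasomes into the nucleus, had 0.28.

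Of the enzymes and adaptors that bind the proteasome, 6 of 8 were lower, with a median log2 ratio of -0.26. The share to set beside each such count here is 49.9% lower among all genes, without regard to brightness. The deubiquitinase Usp14 had 709 in the threonine-deficient pool and 1147 in the control pool, 1.62-fold lower (-0.69), but its further 3 probe sets gave -0.04, 0.00 and 0.29. The scaffold Ecpas (ECM29) had -0.47, with -0.46 in 1 further probe set and 0.03 in another. The deubiquitinase Uchl5 had -0.30, the ubiquitin ligase Ube3c -0.22 (-0.43 in a second probe set) and Fbxo7, which binds PI31, -0.03. The thioredoxin-like Txnl1 had -0.35 and -0.38 in its 2 brightest probe sets and 0.36 in another. A further probe set each of Txnl1 and Ube3c was under the floor in the threonine-deficient pool only. They gave -0.52 or lower for Txnl1 and -0.29 or lower for Ube3c. The 2 higher genes were the zinc finger proteins Zfand2a (0.26) and Zfand5 (0.11). Further probe sets gave -0.30 and 0.40 for Zfand5, and 0.00 and at least 0.43 for Zfand2a. Of the genes that control proteasome expression and the disposal of proteins from the endoplasmic reticulum, 4 of 6 were lower, with a median of -0.11. Sel1l and Syvn1, the genes of that disposal, had -0.14 and -0.27. Further probe sets ran from -0.26 to 0.12 for Sel1l and gave -0.33 for Syvn1. Nfe2l1 itself had 1624 in the threonine-deficient pool and 1424 in the control pool (0.19, local spread 0.27). Its relative Nfe2l2 had 0.12, Ngly1, the deglycosylase that NRF1 needs, had -0.09, and Keap1, the adaptor that marks NRF2 for degradation, had -0.58 and 0.10 in its 2 probe sets. The segregase Vcp, which pulls tagged proteins out of membranes and complexes, had 5780 in the threonine-deficient pool and 6759 in the control pool (-0.23). It was 1 of 6 lower genes among 7 of the ubiquitin and shuttle list, with Nploc4 (-0.29), Ubqln1 (-0.27), Ubqln4 (-0.24), Ubqln2 (-0.20) and Rad23b (-0.12), while Ufd1 had 0.09. Further probe sets above the floor gave -0.94 and -0.09 for Rad23b, -0.17 for Ubqln1, -0.44 for Ubqln4 and 0.27 for Ufd1.

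**Figure D4:**
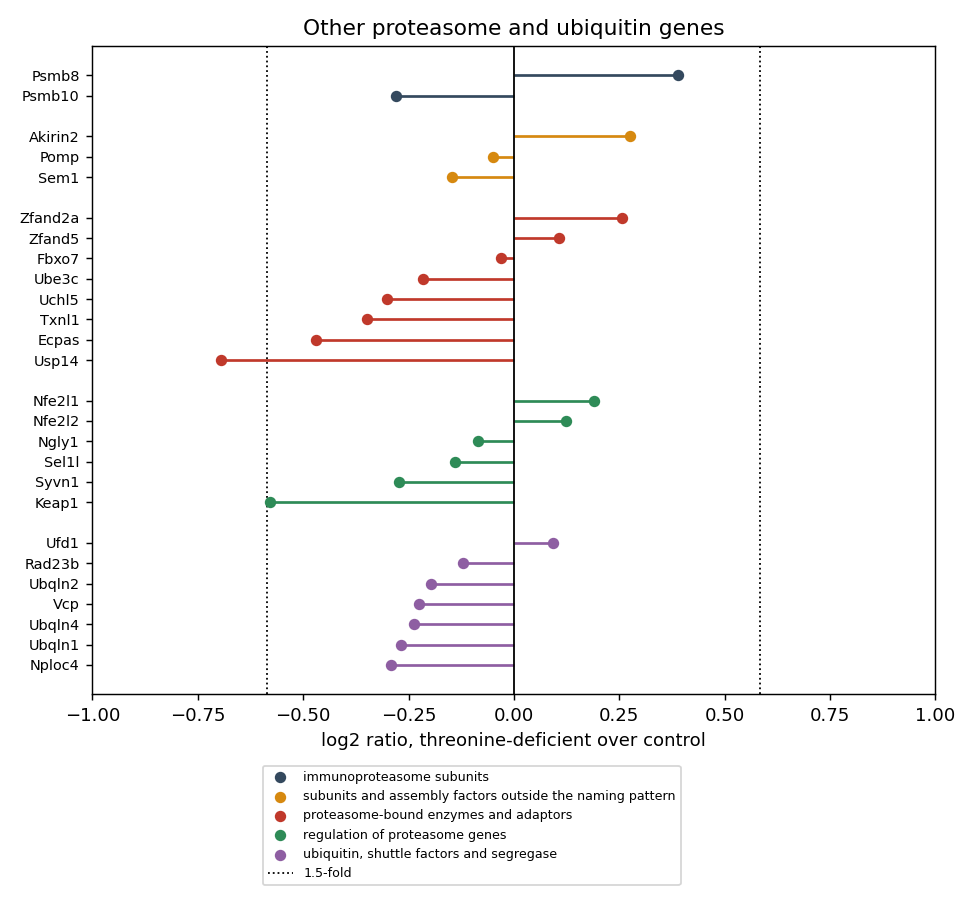
Log2 ratios (threonine-deficient over control) of 26 listed proteasome and ubiquitin genes outside the naming pattern, coloured by list, with dotted lines at 1.5-fold. Most points lie below 0, from -0.69 for Usp14 to 0.39 for Psmb8, whose control signal lay at the floor.

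Beside these, autophagy core genes, the other main route of protein degradation, had a median log2 ratio of 0.01 over 34 genes, with 16 lower and 18 higher. Cytosolic ribosomal proteins had a median of -0.03 over 43 genes, with 25 lower and 18 higher. The proteasome median of -0.11 was lower than both, and the differences could not be tested with 1 array per group. These medians take no account of brightness. Against genes of like signal the proteasome genes had a median distance of -0.04, and no such value was taken for the autophagy or ribosomal genes.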

How the data were processed

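The authors deposited a linear signal intensity per probe set, made with MAS5 per the submitters' processing notes, with the version not given in the sources used here. Labelled RNA came from 1 pool per group, per the labels. Of 45101 probe sets, 64 were controls, 34945 carried 1 gene symbol, 932 several and 9160 none. Symbols came from the platform annotation and were updated through gene identifiers against RefSeq genes of GRCm38.p6 for 34741 probe sets. Scripts in Python 3.11.15 with pandas 2.3.3 and statsmodels 0.14.6 took the brightest probe set per gene by mean log2 signal, set the floor, and took log2 ratios. Local spreads used 200 genes, and loess a span of 0.3. With 1 array per group there was no test, and the number of arrays limits the precision. The alternatives were centring, loess, a pseudocount or no floor at all, a floor at the 75th or the 50th percentile, the median over probe sets, and leaving out probe sets ending in _s_at, _x_at or _a_at. All proteasome genes above the floor are named by role, with signals on both arrays for those past 1.5-fold, the extremes of each role and the cutting subunits. A few further signals were chosen after the values were seen. The members, roles and lists were chosen with earlier results of these data known. The calculation was tested on simulated data with known ratios.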

Additional observations from a re-analysis of the deposited data

How the results depend on the processing

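The median log2 ratio of all proteasome genes was negative under 9 of 9 alternatives. It ran from -0.12 without probe sets of a sharing suffix (34 genes) to -0.04 after a loess trend on signal was removed. After loess 24 of 41 genes were lower, or 58.5%, against 49.2% of all genes. The beta ring median ran from -0.18 to -0.11. The lid median changed sign, between -0.02 and 0.05, and was negative under 5 of 9. With no floor, 2 genes were at least 1.5-fold lower and 1 higher, because dim genes then enter. With the median over all probe sets, dim probe sets at the floor give ratios of 0.00, which leaves 9 genes higher, 0 at least 1.5-fold lower and an activator median of 0.00. The 25 lower genes were 61.0% of the 41, against 41.3% lower among all genes in that setting. Psme3 was at 0.00 in that setting, and at -0.68 with a pseudocount or the floor at the 75th percentile. Without probe sets of a sharing suffix Psmd13 had 0.29 and Psme4 -0.07. Of the 41 genes, 29 kept 1 sign under every alternative that gave a value, 20 lower and 9 higher. Much of this was fixed in advance. Another floor, no floor or a pseudocount cannot reverse a gene above the floor on both arrays, and centring changed no sign. A median over probe sets leaves a gene with 1 probe set as it was. Signs differed for 3 genes after loess and 3 of 34 without a sharing suffix. With the median over all probe sets 8 genes did not keep their sign. Of these, Psmf1 moved to -0.01, while Psma1, Psma5, Psmd7, Psmd9, Psmd11, Psme3 and Psme4 went to 0.00 and did not reverse. A ratio of 0.00 was counted as not keeping a sign, also for the 29 above. The median over probe sets above the floor on both arrays, chosen after seeing the data, gave -0.11. In it 28 genes were lower, or 68.3%, against 49.7% of all genes. No paired analysis was possible because each group is 1 array.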
